A study of Rattus norvegicus with 6 samples.

Results

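Leukocyte integrins are pairs of an alpha and a beta subunit on the surface of white blood cells, and their ligands sit on endothelium and other cells. The genes followed here are Itgam, Itgax, Itgal and Itgad, which encode the CD11 alpha subunits, Itgb2, which encodes the beta subunit they share, Itga4 and Itgb7, which encode an alpha and a beta subunit that can pair, and the ligand genes Icam1 and Vcam1. They were chosen by name, as the rows of the gene table whose symbol equals a member. Of the 9 members listed, 8 had a row among the 19616 genes, and no row carried the symbol Itgad, which was not analysed here.

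As background, leukocytes roll on selectins, switch their integrins to a binding state through talin and kindlin, stop on ligands of the immunoglobulin superfamily and then pass between endothelial cells. The products of Itgal and Itgam, paired with that of Itgb2, bind Icam1, and the product of Itga4, paired with Itgb1, binds Vcam1. In the liver, these pairs are known from Kupffer cells, recruited monocytes, neutrophils and lymphocytes, and Icam1 and Vcam1 from inflamed sinusoidal endothelium.

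RNA was sequenced from the livers of male SD rats, 1 library per rat, after removal of ribosomal RNA. The 3 FL rats (numbers 2, 5 and 12) had been injected intraperitoneally with equal parts of olive oil and CCl4 (carbon tetrachloride, which is toxic to hepatocytes), 2 mL/kg per injection and 2 injections a week over 5 weeks. The 3 CL rats (numbers 5, 6 and 7) received olive oil alone in the same volume. The age of the rats was not given in the sources used here. Each value is in FPKM, the fragments of a gene relative to the length of its transcript and the mapped fragments of the library, so levels of different genes can be set side by side.

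Hepatocyte markers were abundant in all 6 rats. Alb, the most abundant of them, averaged 32272 FPKM in CL rats (SD 1010, n = 3) and 24803 FPKM in FL rats (SD 572, n = 3). Of the 7 hepatocyte markers, 0 were called in either direction by limma (1 at an unadjusted p under 0.05). Even so, Alb, Ttr and Hnf4a were lower in every FL rat than in every CL rat, and Apoa1 and Tf were higher. Cps1 and Serpina1 overlapped. The standard error from limma was wide for Alb (0.98 on the log2 scale), so the lack of a call does not show that its level was equal. The summed FPKM of a library ran from 309425 to 340467 among CL rats and from 272110 to 309226 among FL rats. The most frequent low value of the U6 genes, which have similar lengths, put the relative depth at 1, 0.656 and 0.84 in CL rats 5, 6 and 7 and at 0.677, 0.75 and 0.677 in FL rats 2, 5 and 12. This estimate takes that value to stand for the same number of fragments in every library, which was not checked. The absolute depth of each library cannot be read from these values, and low FPKM rest on few reads.

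FL rat 2 stood apart from the other FL rats in several genes. Its Fga, a fibrinogen chain, read 5122 FPKM against 1965 in FL rat 5 and 1839 in FL rat 12. Its Cxcl1, a chemokine for neutrophils, read 34.7 FPKM against 6.52 and 2.97. Its Col1a1, a chain of type I collagen, read 17.0 FPKM against 101 and 73.7. Several member values are given with and without this rat.

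Groups were compared with limma on log2(FPKM + 0.1) over the 14864 genes whose mean reached 0.1 FPKM, and a gene was called where its fold change reached 2 with an adjusted p below 0.05. All 8 measured members reached that mean. Of them, 6 were called higher in the FL group, against 9.29% of all genes tested. The called members were Itgam, Itgax, Itgal, Itga4, Itgb2 and Icam1, and Itgb7 and Vcam1 were not called. The count was also 6 without FL rat 2. None was called lower (0 members by limma, and 0 at an unadjusted p under 0.05), against 0.935% of all genes. In 7 members every FL rat lay above every CL rat, against 35.7% of all genes, and Vcam1 was the exception. The median log2 fold change of the 8 members was 1.38, and that of all genes 0.29. The median of all genes was 0.08 after median scaling and -0.04 after quantile normalization, so changes are also given relative to it. These were 1.90 for Itgam, 2.20 for Itgax, 1.28 for Itgal, 1.31 for Itga4 and 0.90 for Itgb7, with the others below. Fold changes on this scale understate those of genes with low FPKM and depend on the pseudocount. At a pseudocount of 1 they were 1.11 for Itgam, 1.13 for Itgax, 1.10 for Itga4, 0.38 for Itgb7 and 0.15 for Vcam1.

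**Figure D1:**
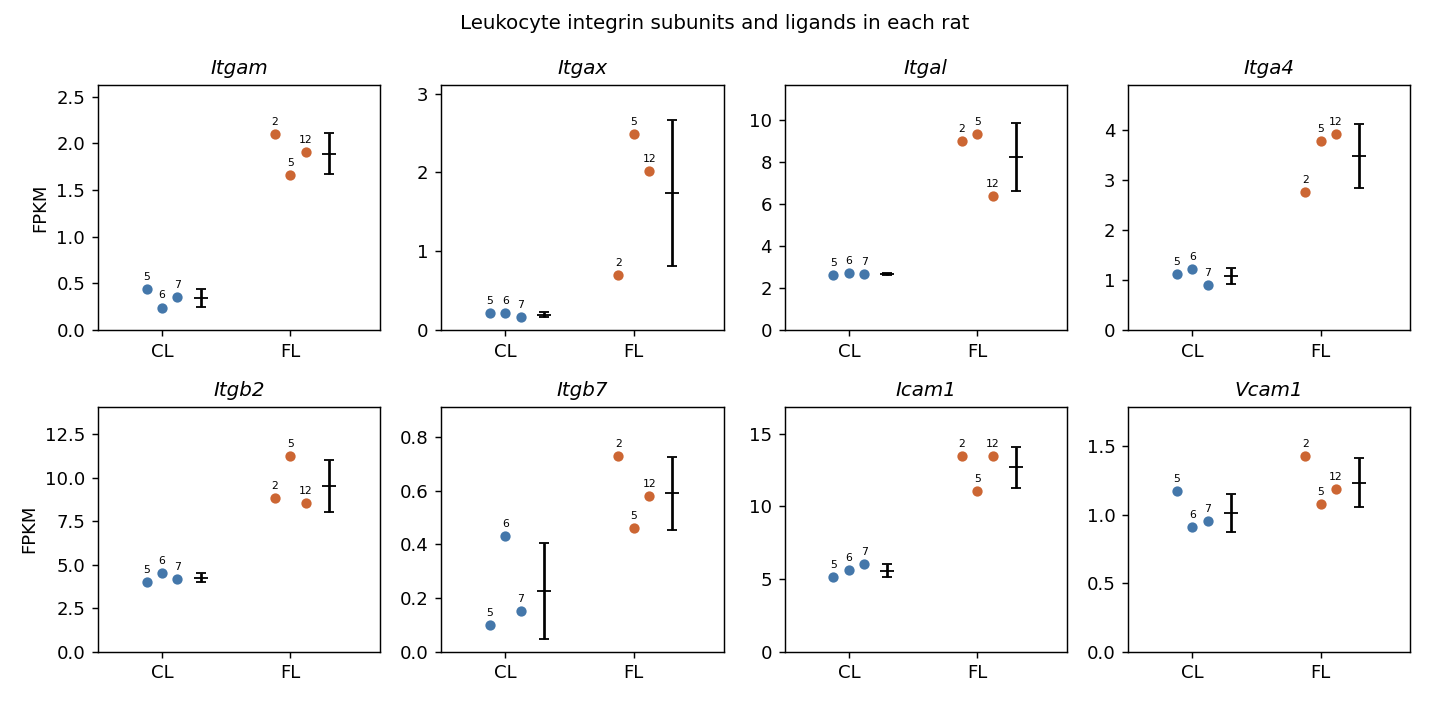
Expression of the 8 measured members in FPKM (vertical axes, starting at 0) in each CL and FL rat, with points numbered by rat and bars showing the mean ± SD of 3 rats. The groups overlap in Vcam1, and Itgax of FL rat 2 (0.70 FPKM) lies well under the other FL rats.

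Itgb2 (ENSRNOG00000001224, chromosome 20) encodes the beta subunit CD18, without which the CD11 subunits do not reach the cell surface. It read 4.02, 4.54 and 4.20 FPKM in CL rats 5, 6 and 7, and 8.82, 11.3 and 8.55 FPKM in FL rats 2, 5 and 12. The groups did not overlap, and FL rat 5 was the highest. It rose by 1.14 ± 0.14 on the log2 scale (standard error, limma's adjusted p = 0.00414), which is 0.85 above the median of all genes. The call was lost because the fold change fell under 2 with median scaling (log2 fold change 0.92) and quantile normalization (0.87), and at a pseudocount of 1 it stood at the limit and was not called. Its adjusted p lay between 0.00287 and 0.0247 over the alternatives.

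Itgal (ENSRNOG00000017980, chromosome 1) encodes CD11a, the alpha subunit of lymphocytes and many other leukocytes. Its values were 2.62, 2.71 and 2.68 FPKM among CL rats, against 9.0, 9.35 and 6.41 FPKM in FL rats 2, 5 and 12. The CL rats were close to each other, and FL rat 12 was the lowest of its group. Its change on the log2 scale was 1.57 ± 0.17 (standard error) with limma's adjusted p = 0.00244.

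Itgam (ENSRNOG00000019728, chromosome 1) encodes CD11b, the alpha subunit of the complement receptor of monocytes, macrophages and neutrophils. Its values were 0.44, 0.24 and 0.35 FPKM among CL rats, against 2.10, 1.66 and 1.91 FPKM in the FL rats. Every FL rat was above 1 FPKM and every CL rat under it. On the log2 scale it rose by 2.19 ± 0.25 (standard error, limma's adjusted p = 0.00319), larger than that of 98.5% of the genes tested.

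Itgax (ENSRNOG00000036703, chromosome 1) is the symbol for CD11c, known from dendritic cells and some macrophages. Its values were 0.21, 0.21 and 0.16 FPKM among CL rats, against 0.70, 2.49 and 2.02 FPKM in FL rats 2, 5 and 12. FL rat 2 was under the other FL rats but above every CL rat. It rose by 2.49 ± 0.44 on the log2 scale (standard error, limma's adjusted p = 0.01), and by 3.00 without FL rat 2. The RefSeq table lists Itgax as an older name of Itgad, and it pairs no Ensembl identifiers with genes, so the row is named here as the table of values names it. The row, and with it the fold change and share given for Itgax, may be that of Itgad. Itgam, Itgax and Itgad are neighbours and paralogs. The authors counted uniquely mapped reads, and how far leaving out reads shared between these genes lowered their FPKM was not tested.

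Itga4 (ENSRNOG00000004861, chromosome 3) encodes the alpha subunit that binds Vcam1 when paired with Itgb1. Its values were 1.12, 1.21 and 0.90 FPKM among CL rats, against 2.75, 3.78 and 3.92 FPKM in the FL rats. The groups did not overlap, and FL rat 2 was the lowest of its group. It rose by 1.60 ± 0.20 on the log2 scale (standard error, limma's adjusted p = 0.00415), and by 1.76 without FL rat 2.

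Itgb7 (ENSRNOG00000012208, chromosome 7) encodes the beta subunit of the gut-homing integrin. Its values were 0.10, 0.43 and 0.15 FPKM among CL rats, against 0.73, 0.46 and 0.58 FPKM in the FL rats. CL rat 6 came close to FL rat 5, and all values were low. Its log2 difference was 1.19 ± 0.42 (standard error) and was not called (adjusted p = 0.0842 from limma). It was 0.60 with quantile normalization and 1.05 without FL rat 2. Without CL rat 6 it was 1.61 and was called (adjusted p = 0.0432, with 0.0432 to 0.401 over the alternatives).

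Icam1 (ENSRNOG00000020679, chromosome 8) encodes the ligand of the CD11 and CD18 pairs. Its values were 5.13, 5.60 and 6.01 FPKM among CL rats, against 13.5, 11.1 and 13.5 FPKM in the FL rats. It had the highest mean of the members in both groups, though it lay under Itgb2 in FL rat 5, and the groups did not overlap. On the log2 scale it rose by 1.17 ± 0.13 (standard error, limma's adjusted p = 0.00307), which is 0.88 above the median of all genes. With median scaling (0.94) and quantile normalization (0.92) the fold change fell under 2 and the call was lost, with an adjusted p of 0.00203 to 0.0171 over the alternatives.

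Vcam1 (ENSRNOG00000014333, chromosome 2) encodes the ligand of the integrin that holds the product of Itga4. Its values were 1.17, 0.91 and 0.95 FPKM among CL rats, against 1.43, 1.08 and 1.19 FPKM in the FL rats. The groups overlapped, since CL rat 5 lay above FL rat 5. Its log2 difference was 0.26 ± 0.21 (standard error, limma's adjusted p = 0.392), 0.03 under the median of all genes. It was 0.16 without FL rat 2 and 0.06 with median scaling, and it turned to -0.28 with quantile normalization. The log2 ratio of Icam1 to Vcam1 in FPKM was 2.47 ± 0.29 for CL and 3.37 ± 0.13 for FL rats (SD over 3 rats). This ratio was chosen after the values were seen and was not tested.

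In the order of levels, the CL group ran from Icam1 (5.58 ± 0.44 FPKM) through Itgb2 (4.25 ± 0.26), Itgal (2.67 ± 0.046), Itga4 (1.08 ± 0.16), Vcam1 (1.01 ± 0.14), Itgam (0.343 ± 0.10) and Itgb7 (0.227 ± 0.18) to Itgax (0.193 ± 0.029). The rats of Itga4 and Vcam1, of Itgam and Itgb7, and of Itgb7 and Itgax overlapped. In the FL group, Itgam (1.89 ± 0.22 FPKM) and Itgax (1.74 ± 0.93) stood above Vcam1 (1.23 ± 0.18) in the order of means, and Itgb7 (0.590 ± 0.14) had the lowest mean, though in FL rat 2 it lay above Itgax. The rats of Icam1 and Itgb2, of Itgb2 and Itgal, of Itgam and Itgax, of Itgax and Vcam1, and of Itgax and Itgb7 overlapped there.

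Among the CD11 subunits, Itgal took most of the summed FPKM in every rat. The sum of the 3 measured subunits was 3.21 ± 0.057 FPKM for CL and 11.9 ± 1.6 FPKM for FL rats (SD over 3 rats). The share of Itgal was 80.1%, 85.8% and 84.0% in the CL rats and 76.3%, 69.3% and 62.0% in FL rats 2, 5 and 12. The groups did not overlap, with a difference of -14.1 percentage points (exact two-sided permutation p = 0.1, the smallest that 3 against 3 rats can give), and of -17.7 without FL rat 2. The share of Itgax was 6.42%, 6.65% and 5.02% in the CL rats and 5.93%, 18.4% and 19.5% in the FL rats, where FL rat 2 lay among the CL rats (exact permutation p = 0.3). The difference was 8.61 percentage points, and 13 without FL rat 2. The share of Itgam was 10.7% ± 2.9 in the CL and 16.2% ± 3.4 in the FL group, and the groups overlapped (exact permutation p = 0.2). The ratio of Itgb2 to that sum, which was not tested, was 1.33 ± 0.10 in the CL and 0.803 ± 0.049 in the FL group.

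**Figure D2:**
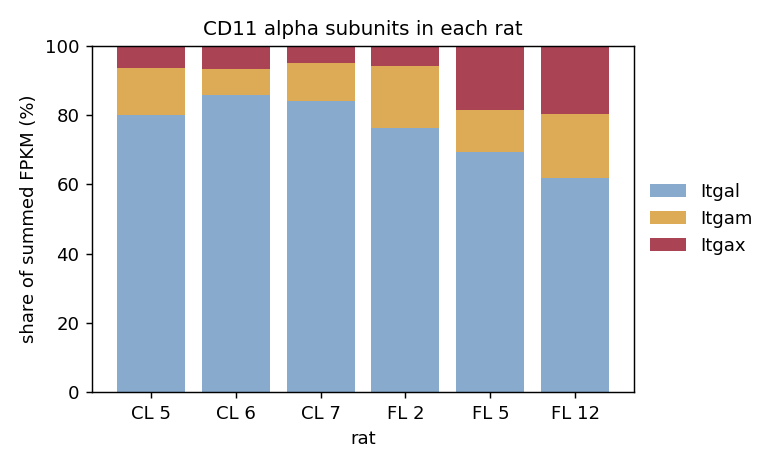
Share of Itgal, Itgam and Itgax in their summed FPKM (vertical axis, percent) in each of the 6 rats. Itgal holds 80.1% to 85.8% in the CL rats and 62.0% to 76.3% in the FL rats, and Itgax of FL rat 2 is at 5.93%.

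Pan-leukocyte markers were higher in the same FL rats. In bulk tissue, more cells of a type and more RNA per cell cannot be told apart. Of the 7 pan-leukocyte genes tested, 7 were called higher, with a median log2 fold change of 1.46, and 5 stayed called under every alternative that gave a value. Ptprc, which encodes CD45, read 3.19, 3.25 and 3.12 FPKM among CL rats, against 8.12, 10.2 and 8.72 FPKM in the FL rats. The list summed to 31.3, 32.2 and 29.1 FPKM in the CL rats and to 78.7, 101 and 88.8 FPKM in the FL rats, and Laptm5 was its most abundant gene in every rat but FL rat 12, where Lcp1 was.

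Set against the median of that list in the same rat, the members differed in direction. That median was over all 8 listed genes. They include Cd52, which read 0 or 0.19 FPKM in each rat and was not tested by limma. A median over the 7 tested genes was not computed, and the size of the differences may depend on this choice. Itgam lay at -3.34 ± 0.49 on the log2 scale in the CL and at -2.58 ± 0.28 in the FL group, a difference of 0.76 without overlap (exact permutation p = 0.1), and of 0.50 without CL rat 6. That direction depended on the pseudocount, since the difference was -0.16 at a pseudocount of 1. For Itgax the difference was 1.06 (1.52 without FL rat 2) and the groups overlapped (exact permutation p = 0.2), and it turned to -0.13 at a pseudocount of 1. Itgb2 lay 0.29 lower in the FL group (difference -0.29, exact permutation p = 0.1). Vcam1 showed a difference of -1.16 (-1.32 without FL rat 2), also without overlap (exact permutation p = 0.1). For Itgal (0.14), Itga4 (0.17), Itgb7 (-0.24) and Icam1 (-0.26) the groups overlapped, and the sign turned for Itga4 at a pseudocount of 1 (-0.16) and for Itgb7 without CL rat 6 (0.10). At that pseudocount Itgb7 was at -0.88 and Itgal at 0.05. With 1 rat left out, Itgal ran from 0.02 (without FL rat 2) to 0.30 (without FL rat 12), Itga4 from 0.07 (without FL rat 12) to 0.27 (without FL rat 2) and Icam1 from -0.36 (without FL rat 2) to -0.10 (without FL rat 5), and Itgb7 was at -0.43 without FL rat 2.

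Markers of leukocyte types gave mixed counts. Of 11 macrophage or monocyte markers, 5 were called higher (3 of them under every alternative), and the sum of the list was 214, 201 and 208 FPKM in the CL rats and 379, 320 and 229 FPKM in the FL rats. Lyz2, which encodes lysozyme, had a log2 fold change of 3.13 (adjusted p = 0.00165 from limma), and Cd68, a lysosomal protein of macrophages, 1.69 (adjusted p = 0.00172). Marco, a scavenger receptor of resident macrophages, was called higher (2.06, adjusted p = 0.0069), as were Csf1r and Aif1. Clec4f, a receptor of Kupffer cells, was not called (log2 difference -0.02), nor were Mpeg1, the most abundant of the list (-0.17), and Cd14, whose difference was the most negative (-0.70).

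Of 7 neutrophil markers tested, 4 were called higher (S100a8, S100a9, Csf3r and Fcnb), but their levels were low and each lost its call under at least 1 alternative. The list of 11 summed to 1.01, 1.62 and 1.51 FPKM in the CL rats and to 7.96, 3.32 and 6.52 FPKM in the FL rats, with S100a8 the most abundant by the mean of either group, though Fcnb led in CL rat 5 and FL rat 2. Of the granule genes, Mpo and Elane were listed at 0 in every CL rat, and reached at most 0.06 and 0.04 FPKM in the FL rats.

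Of 8 T cell markers tested, 3 were called higher (Cd2, Cd4 and Cd8b), of which 1 kept its call under every alternative. Cd4, which rat macrophages also express, was the most abundant, and the sum of the list was 11.8, 10.3 and 10.6 FPKM in the CL rats and 23.5, 30.8 and 25.0 FPKM in the FL rats. Cd3e, a chain of the T cell receptor complex, was not called (0.237 ± 0.051 and 0.397 ± 0.24 FPKM). None of the 6 NK cell markers, 2 B cell markers and 7 dendritic cell markers tested was called by limma (0 in each list, with 0, 1 and 1 at an unadjusted p under 0.05). Their most abundant genes were Klrk1, Cd79a and Zbtb46. The part of any of these cells in the members' changes was not tested.

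Among the other cells of the liver, 4 of 8 stellate or myofibroblast markers were called higher, with a median log2 fold change of 1.59. Tagln was the most abundant in the CL rats, Rgs5 in FL rat 2 and Col1a1 in FL rats 5 and 12. The sum of the list was 51.0, 44.8 and 40.9 FPKM in the CL rats and 89.9, 239 and 174 FPKM in the FL rats. FL rat 2, with the lowest sum among FL rats, was also the lowest of them for Itgax and Itga4. It was the highest of them for Itgam, Itgb7 and Vcam1, and for Icam1 by a narrow margin (13.49 FPKM against 13.48 in FL rat 12). A link was not tested. Of 8 endothelial markers, Vwf alone was called higher (1 gene, though not under every alternative), with a median of 0.31. Kdr was the most abundant in every rat but FL rat 12, where Lyve1 was, and Lyve1 had the higher mean in the FL group. Of 6 cholangiocyte markers, 1 was called higher, Spp1, which is also among the soluble ligands. Spp1 was the most abundant in every FL rat, and Epcam in every CL rat. Of 3 erythroid markers, 0 were called by limma (1 at an unadjusted p under 0.05), and the median was -0.75 with Hbb the most abundant.

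Beyond the members, 65 genes around leukocyte adhesion were listed, of which 59 had a row and 57 were tested. The lists also hold signalling genes downstream of the CD18 integrins and NF-kappaB targets, which are not all adhesion genes. In the FL group 19 of the 57 were called higher by limma, against 9.29% of all genes tested. Of the 19, 6 were such signalling genes and 6 such targets. None was called lower (0, and 0 at an unadjusted p under 0.05), against 0.935% of all genes. These shares are also the background for the counts in each list, including the marker lists above. The median log2 fold change of the 57 genes was 0.71, against 0.29 for all genes. The count called higher fell to 12 without FL rat 5, to 10 at a pseudocount of 1 and to 7 with quantile normalization. For all genes it fell from 1381 to 682, 462 and 453 in the same order. The count was 18 without FL rat 2, and 5 of the genes stayed called under every alternative that gave a value.

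Of 10 signalling genes downstream of the CD18 integrins, 6 were called higher (2 of them under every alternative), with a median of 1.36. Tyrobp, an adaptor with an activation motif and the most abundant of them, read 12.9 ± 2.9 FPKM for CL and 39.5 ± 10.0 FPKM for FL rats (log2 fold change 1.60, adjusted p = 0.00491 from limma).

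Of 13 integrin activation genes tested, 4 were called higher (Fermt3, Apbb1ip, Fyb and Cyth4), with a median of 0.58, and only Cyth4 (1 gene) under every alternative. Fermt3, the kindlin of blood cells, read 2.92, 2.25 and 2.51 FPKM among CL rats, against 6.30, 6.61 and 5.89 FPKM in the FL rats (log2 fold change 1.27, adjusted p = 0.00316 from limma, and as low as 0.93 over the alternatives, where the call was lost). Tln1, the talin gene that many cell types express, was not called (log2 difference 0.50), nor was Rap1b, the most abundant of the list (0.57).

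Of 4 selectin and selectin ligand genes tested, Selplg and Cd44 were called higher (2 genes), with a median of 1.50 and Glg1 the most abundant. Selplg, which encodes the main selectin ligand of leukocytes, had a log2 fold change of 1.74 (adjusted p = 0.0048 from limma), and Cd44, a hyaluronan receptor, one of 2.23 (adjusted p = 0.00414). Sele and Selp, the endothelial selectins, were under the limit of 0.1 FPKM and were not tested. Sele was listed at 0 in every CL rat.

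Of 10 NF-kappaB target genes tested, 6 were called higher (Nfkb2, Relb, Tnfaip3, Birc3, Ccl2 and Cx3cl1), with a median of 1.05 and Nfkbia the most abundant in every rat but FL rat 2, where Cxcl1 was, and each of the called genes lost its call under at least 1 alternative. Ccl2, a chemokine for monocytes, read 0.05, 0.37 and 0.26 FPKM among CL rats, against 1.95, 1.05 and 1.27 FPKM in the FL rats (log2 fold change 2.33, adjusted p = 0.0135 from limma). Of 7 soluble and matrix ligands, Spp1 alone was called higher (1 gene, though not under every alternative), with a log2 fold change of 4.53 (adjusted p = 0.0119), and Fga was the most abundant in every rat but FL rats 5 and 12, where C3 was. The median of that list was 0.21.

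Other ligands and junction genes were not called. None of the 6 other immunoglobulin superfamily ligands tested was called (0 by limma, 2 at an unadjusted p under 0.05), and their median of 0.33 lay 0.04 above that of all genes, with F11r the most abundant. Icam2, a ligand of the Itgal product on resting endothelium, read 2.96 ± 0.22 FPKM in the CL and 3.77 ± 0.15 FPKM in the FL group. Of 5 transmigration genes tested, 0 were called by limma (4 at an unadjusted p under 0.05), with a median of 0.51 and Cd47 the most abundant. Itgb1, the more abundant of the 2 integrin partners, read 20.5 ± 1.0 and 34.0 ± 5.7 FPKM, and its log2 fold change of 0.71 was under the limit (adjusted p = 0.0148 from limma). Itgae was not called (log2 difference 0.03).

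**Figure D3:**
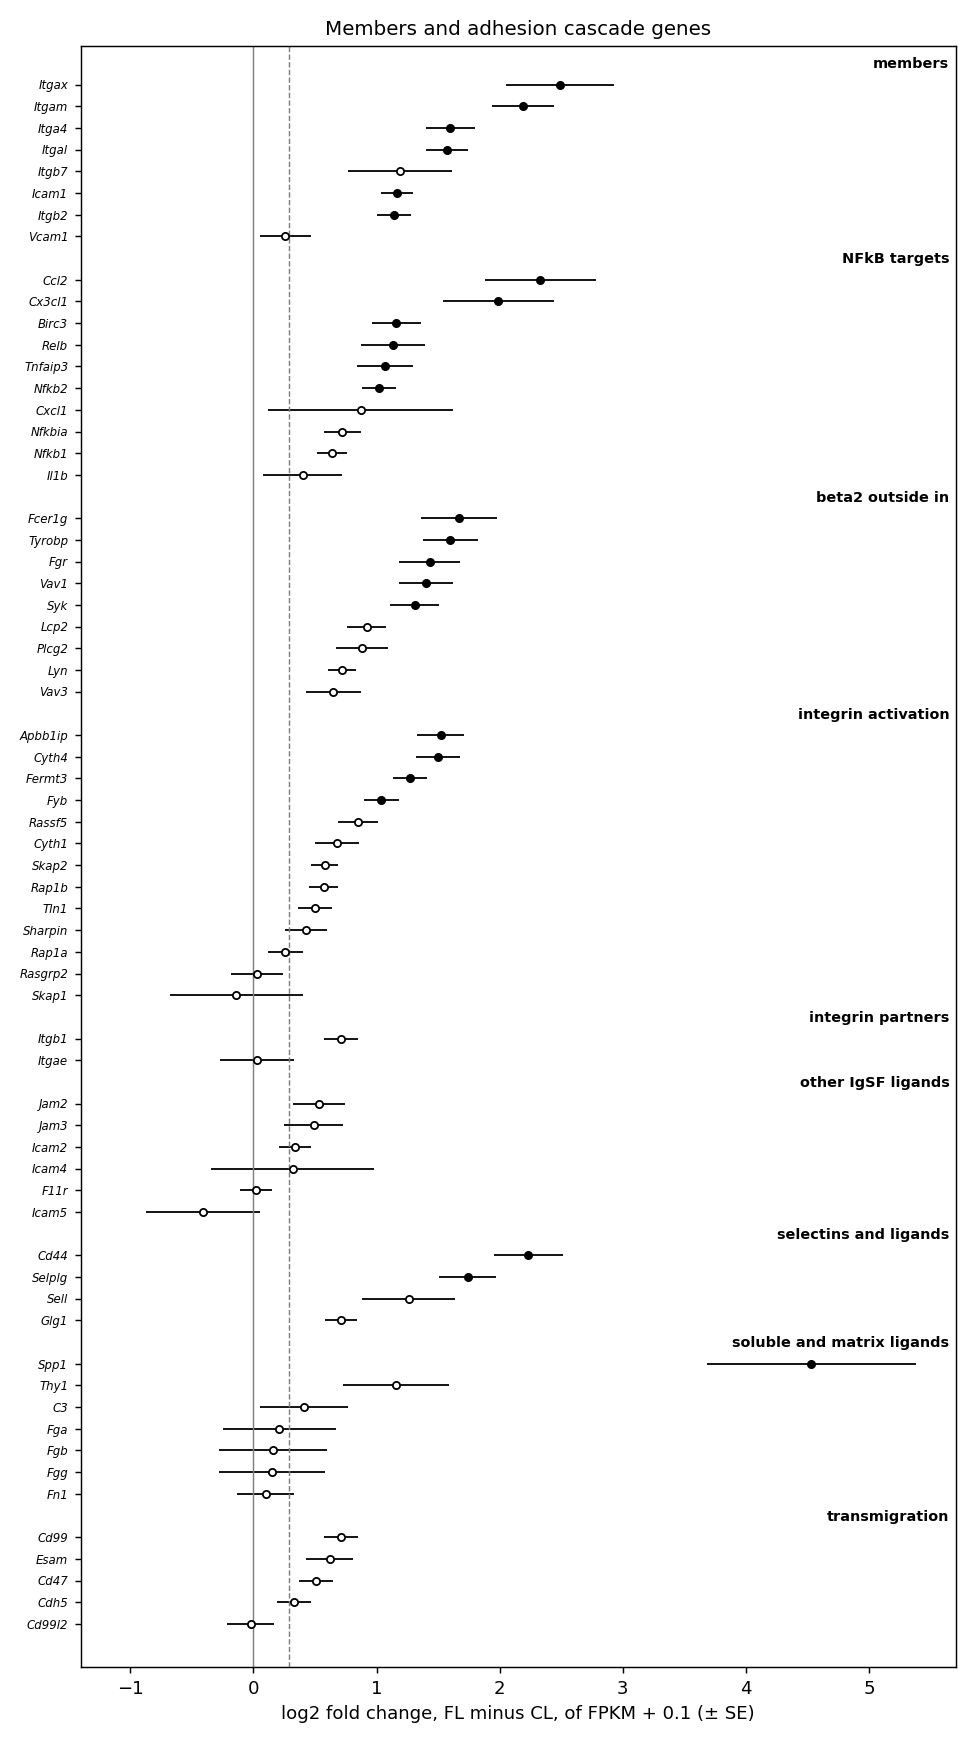
Log2 fold change of FPKM + 0.1, FL minus CL (horizontal axis, ± standard error), of the 8 members and of genes of adhesion, integrin signalling and NF-kappaB targets grouped by list (not all that were tested), with filled points for called genes. The solid line is at 0 and the dashed line at the median of all genes (0.29), and Vcam1 lies next to the dashed line.

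The genes whose pattern over the 6 rats was most like that of Itgb2 were found by the root mean square difference of gene-centred log2(FPKM + 0.1), among 10529 genes whose mean reached 1 FPKM. They were Entpd1 (0.052), Slc43a2 (0.070), Plekho1 (0.074), Hpcal1 (0.075) and Tnfaip8 (0.077). Nearest to Itgam were RT1-Db1 (0.184), Igsf6 and RT1-Da, of which RT1-Db1 and RT1-Da are class II histocompatibility genes. Nearest to Itgax were Adamts2 (0.136), Hacd4 and Fkbp10. Itgal was closest to Rn60_10_0705.2 (0.071), Igsf8 and Nfam1, and Itga4 to Cnn2 (0.071), Aldh1a3 and Efemp2. Icam1 was closest to Ablim1 (0.077), Cd86 and Tcn2, Itgb7 to Reep5 (0.224), St6galnac4 and RT1-Bb, and Vcam1 to Rmdn3 (0.060), Derl1 and Timm8b. These are descriptions over 6 rats, with no test.

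Promoters from RefSeq (build GRCr8, 250 bases before to 50 after the start) matched 6 of the 9 members, namely Itgam, Itgax, Itga4, Itgb7, Icam1 and Vcam1. Because of the naming of Itgax and Itgad described above, the promoter of Itgax and the row of that name may be of different genes. Both strands were searched for the kappaB motif and for GAGGAA, the core of the PU.1 motif. The kappaB motif was found in 1 of the 6, Vcam1, and in 7.51% of all 33469 promoters. The PU.1 core was found in 1 of the 6, Itgam, and in 27.6% of all promoters. These 2 are shown because they alone had a match, and capitals mark the matches. Itga4 and Icam1, which were called, and Itgb7, which was not, had no match to either motif as searched. The promoter of Itgax had none either, and the called row of that name may be that of Itgad. The lack of a match does not show that a site is absent. In Itgam, at chr1:192089342-192089641 on the plus strand, the core lies once on each strand. In Vcam1, at chr2:206742734-206743033 on the minus strand, the match reads as the motif on both strands. A match is a description of letters and not of binding.
Itgam: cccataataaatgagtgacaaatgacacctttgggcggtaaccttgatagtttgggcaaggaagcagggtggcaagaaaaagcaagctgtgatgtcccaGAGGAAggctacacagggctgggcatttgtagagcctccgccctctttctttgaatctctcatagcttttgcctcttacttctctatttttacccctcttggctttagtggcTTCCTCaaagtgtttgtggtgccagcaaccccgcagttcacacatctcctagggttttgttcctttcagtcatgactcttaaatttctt
Vcam1: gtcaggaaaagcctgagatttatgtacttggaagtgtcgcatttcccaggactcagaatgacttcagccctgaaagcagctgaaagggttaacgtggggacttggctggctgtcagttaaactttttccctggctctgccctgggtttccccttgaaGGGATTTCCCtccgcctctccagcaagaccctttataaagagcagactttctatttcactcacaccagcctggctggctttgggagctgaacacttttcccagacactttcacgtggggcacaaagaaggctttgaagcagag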

How the data were processed

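RNA from 6 rat livers was sequenced. After trimming (FASTX-Toolkit) and alignment (TopHat2, with GRCh38 named although the identifiers are Ensembl's for the rat), the authors counted uniquely mapped reads and deposited FPKM to 2 decimals. The authors' edgeR calls were not used. Rats were grouped by their labels. A further 2 columns of values, headed like a CL rat and an FL rat, matched no sample and were not used. Groups were compared with limma 3.58.1 (R 4.3.3, prior variance following the mean) on log2(FPKM + 0.1), with Benjamini-Hochberg adjustment over all genes tested, and the procedure was tested on simulated data. Single values were compared by exact permutation tests, without adjustment over the members although the design named it. Of the genes above 0 in either rat of a pair, 0.866% to 2.54% had the same value in both. Named genes were the members, called genes and the most abundant gene of each list (by the mean of all 6 rats, with those that led in single rats), the genes nearest to each member in pattern, and, after their values were seen, further list genes. Proteins were not analysed here. Members and lists were chosen with earlier results of these data known. Alternatives were other pseudocounts, filters, scalings and priors, no fold limit, and leaving out each rat. Python 3.11.15 with numpy 2.4.6, pandas 2.3.3 and matplotlib 3.10.9 was used.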

Additional observations from a re-analysis of the deposited data

How the results depend on the processing

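The number of members called higher was 6 and became 5 at a pseudocount of 1 and with a mean of at least 1 FPKM, 4 with median scaling or quantile normalization, and 6 to 7 with 1 rat left out. Itgam, Itgal and Itga4 kept their calls under 14 alternatives and Itgax under 13, with log2 fold changes down to 1.11 for Itgam, 1.10 for Itga4 and 1.13 for Itgax. Itgax and Itgb7 gave no value with a mean of at least 1 FPKM. Vcam1 turned to -0.28 with quantile normalization.

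All genes called higher numbered 1381, and 854 with a mean of at least 1 FPKM (fewer genes tested), 826 with median scaling, 462 at a pseudocount of 1, 453 with quantile normalization, 2518 without a fold limit, and 682 to 1833 with 1 rat left out (717 without CL rat 7, 895 without FL rat 12, 682 without FL rat 5). Genes called lower numbered 139, and 72 at a pseudocount of 1, 231 with quantile normalization, 288 without a fold limit, and 80 to 159 with 1 rat left out (80 without CL rat 6 or CL rat 7). Higher calls were 90.9% of all calls, and 66.2% with quantile normalization. Genes of the adhesion lists, with the signalling genes and NF-kappaB targets among them, called higher numbered 19. They numbered 10 at a pseudocount of 1, 7 with quantile normalization, 33 without a fold limit, and 12 to 18 with 1 rat left out (12 without FL rat 5).

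Relative to the pan-leukocyte list, a pseudocount of 1 gave -0.16 for Itgam, -0.13 for Itgax, -0.16 for Itga4 and -0.88 for Itgb7. With 1 rat left out, Itgb7 ranged from -0.46 to 0.10 (0.10 without CL rat 6). The causes were not tested. The numbers label single rats that were randomly divided into groups and mark no pairs, so no paired analysis was made. The values give an unchecked estimate of relative depth and not the absolute depth of each library, so no counting error is given.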
